A study of Drosophila melanogaster with 2 samples.

Results

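The nuclear genes for 4 of the 5 protein assemblies of mitochondrial oxidative phosphorylation were followed in whole female larvae of the last (3rd) instar of Drosophila melanogaster, with and without cell death in the wing discs. Members were the probes whose CG number maps to a nuclear gene named ND- (complex I), UQCR- (complex III), COX followed by a digit (complex IV) or ATPsyn (complex V). Succinate dehydrogenase was left out of the set. The rule reached 82 probes for 75 genes, of 14593 gene probes for 13137 genes on the array. Of these genes, 57 are the usual subunits and 18 are paralogs whose symbols end in L, with or without a digit. ND-MNLL, whose name ends in L for another reason, was kept with the usual subunits. The reference gene table holds 80 such genes, and 5 of them had no assigned probe: COX7AL2, COX7CL, ND-MWFE, UQCR-11 and UQCR-6.4L.

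Ablated larvae carried rnGAL4, UASegr and tubGAL80ts over a wild-type chromosome, so that the wing pouch, where the rotund driver is active, made Eiger, the fly's TNF, which kills the cells. Control larvae carried the TM6 balancer with Tb1 and tubGAL80. Both genotypes spent 24 h at 30 °C, and the titles give day 6. Each carries a GAL80 transgene, given as tubGAL80ts in ablated larvae and as tubGAL80 in controls. Only the controls carry TM6, Tb1 and the GAL80 given without ts. Effects of these cannot be told apart from an effect of ablation. There were 2 two-colour arrays, each with ablated RNA against control RNA. Cy5 marked the ablated RNA on replicate 1, and Cy3 marked it on replicate 2. Whether the replicates are separate cultures is not in the labels. The p-values therefore cover the spread of these samples alone, which may be technical.

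The respiratory chain passes electrons from NADH and succinate to oxygen through large inner membrane complexes, and pumps protons as it does so. ATP synthase lets the protons flow back and makes ATP. Most subunits are encoded in the nucleus and a few in mitochondrial DNA, and both sets are needed for assembly. Drosophila also has retrotransposed or duplicated copies of many of these nuclear genes, which are often expressed mainly in the testis.

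Under the labelled dyes no member passed the gene test. The members' median log2 ratio, 0.0751, lay close to that of all genes tested, 0.00917. When the sign of replicate 2 was turned, 7 of the 43 tested members passed (16.3%, beside 8.63% of all genes tested). With the labelled dyes and the reported processing, 1 subunit was at least 2-fold lower on both arrays. This was ND-B14, an accessory subunit of complex I, which gave lower signal from ablated than from control RNA with either dye, although its ablated channel was not above background on replicate 2. Its mean log2 ratio of ablated to control larvae was -1.34 ± 0.243 (SD, n = 2), which is 2.52-fold lower. With the sign of replicate 2 turned the mean was -0.17, and no gene's direction is settled in these arrays. Several of the largest ratios among the other members, such as those of ND-75, ATPsynB and ATPsynCF6L, turned their sign when the dyes were exchanged.

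A gene was tested when a probe of it exceeded the local background median by 2 SD in at least 1 of the 4 channels. This held for 43 of the 75 member genes (57.3%), beside 45.5% of all genes on the array. By complex, 19 of 33 usual subunits of complex I were tested, 3 of 5 of complex III, 6 of 8 of complex IV and 6 of 11 of complex V. Among the paralogs 9 of 18 were tested. The 32 genes with no channel above background included core subunits that every respiring cell needs. In complex I these were the core subunits ND-49, ND-30, ND-51 and ND-24, with the accessory subunits ND-13B, ND-18, ND-19, ND-ASHI, ND-B12, ND-B14.5A, ND-B15, ND-B22, ND-B8 and ND-SGDH. In complex III they were UQCR-C1, a core protein, and UQCR-Q, and in complex IV COX5A and COX7C. In complex V they were the rotor shaft subunit ATPsyngamma, the peripheral stalk subunits ATPsynO and ATPsynCF6, and ATPsynE and ATPsynF. Among the paralogs they were ND-49L, ND-51L1, ND-51L2, COX4L, COX5BL, COX6AL2, COX6CL, ATPsynGL and ATPsynepsilonL. No ratio of these 32 genes is interpreted.

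Detection differed between arrays and between channels. Of the 43 tested members, 38 were above background in ablated RNA on replicate 1 (87.4% of all genes tested) and 25 in control RNA (62.1%). On replicate 2 these were 19 (40.6%) and 17 (34.9%). Over all gene spots the shares were 38.1% and 26.9% on replicate 1 and 17.6% and 15.0% on replicate 2. Only 7 members (16.3%) were above background in all 4 channels, beside 20.0% of all genes tested. They were ND-75, ND-MLRQ, ND-B17.2, ND-42, ND-AGGG, UQCR-14 and COX8. In 11 members (25.6%, against 26.2% of all genes tested) the controls were not above background on either array, and in 0 members were the ablated larvae so (2.91% of all genes tested). A single channel was above background in 11 members (25.6%, beside 26.9%). No spot of a tested member had saturated pixels. Each of these probes was printed once, and for 12 other probes that were printed 17 times the copies varied with a median SD of 0.178 (replicate 1) and 0.193 (replicate 2) in log2 ratio.

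Across all 5971 genes tested, a gene with a high ratio on one array tended to have a low ratio on the other (Pearson's r = -0.53, Spearman's rho = -0.23, across genes, which are not independent replicates). With r below -0.3, no gene's direction is settled. The dyes were taken as the labels state them, and each result is given with the sign of replicate 2 turned as well. Across the 43 members r was -0.46 and rho -0.32, a description over probes that share both arrays.

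**Figure D1:**
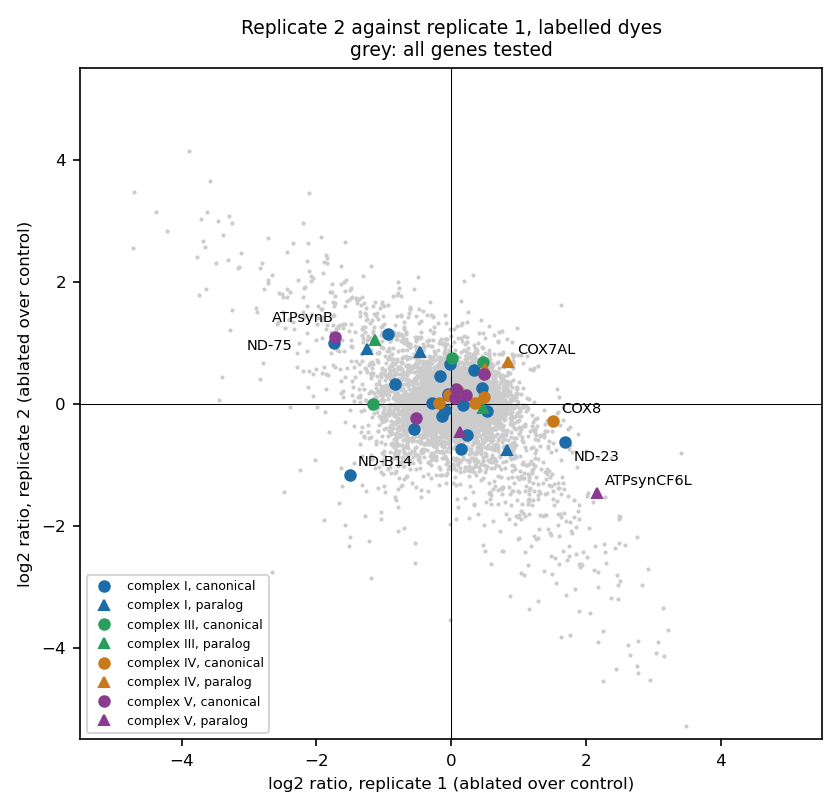
Log2 ratio of ablated to control larvae on replicate 2 (y axis) against replicate 1 (x axis) with the labelled dyes; each point is a gene, all genes tested in grey and the members in colour by complex, usual subunits as circles and paralogs as triangles. ND-B14 lies at the lower left at -1.51 and -1.16, while ND-75, ATPsynB, ND-23 and ATPsynCF6L lie along the diagonal on which the arrays disagree.

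The comparison asks whether transcripts of the respiratory machinery differ between ablated and control larvae. It does not separate disc damage from the other differences between the genotypes. None of the 43 tested members passed limma with Benjamini-Hochberg adjustment over all genes (percent called among all genes, 0%; smallest adjusted p of a member, 0.996). At an unadjusted p under 0.05 there were 2 members, ND-B14 and COX7AL, which is 4.65% of the members beside 2.41% of all genes. With the labelled dyes 13 members were higher in ablated larvae on both arrays (30.2%, beside 24.5% of all genes). Another 6 were lower on both (22.4% of all genes), and 24 had opposite signs (55.8%, beside 53.2%). At least 2-fold on both arrays, 0 members were higher (0.0167% of all genes), and 3 members, ATPsynB, ATPsynCF6L and UQCR-14L, had opposite signs (6.98%, beside 5.79%). The median log2 ratio of the members was 0.0523 on replicate 1 and 0.13 on replicate 2, and that of all genes tested 0.0162 and 0.00569. On both arrays at once, 19 members (44.2%) stayed within 0.5 of 0, beside 55.4% of all genes.

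**Figure D2:**
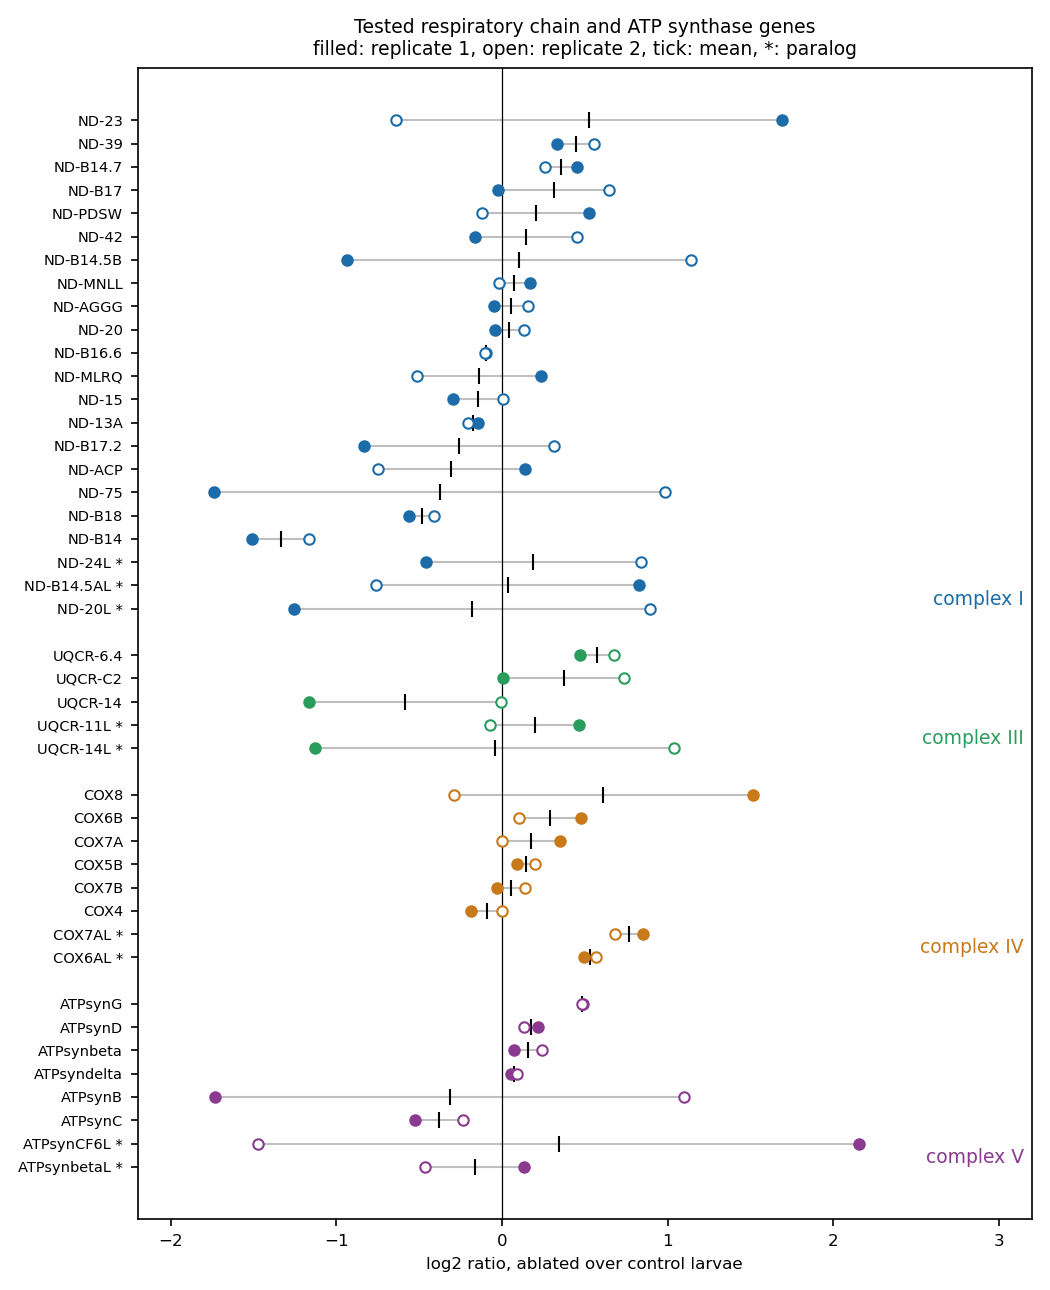
Log2 ratio of ablated to control larvae (x axis) for each of the 43 tested members (y axis), grouped by complex; filled points are replicate 1, open points replicate 2, ticks the mean, and asterisks mark paralogs. Both points of ND-B14 lie below -1, whereas 24 members have points on opposite sides of 0.

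Among the usual complex I subunits, 2 of 19 were higher on both arrays, 4 were lower on both and 13 had opposite signs. Over all genes tested the shares were 24.5%, 22.4% and 53.2%, the background also for the counts of the other complexes below. The median log2 ratio of the complex I subunits was -0.051 on replicate 1 and 0.00574 on replicate 2. This complex is the entry point for electrons from NADH, with a core of catalytic subunits and a shell of accessory ones.

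ND-B14 belongs to the shell and is the counterpart of a mammalian subunit of the LYR protein family. On replicate 1 its spot read 1908 units above local background from ablated RNA and 3604 from control RNA. On replicate 2 it read 214 and 670 units, and there the ablated channel was not above background. The control channel was thus the brighter on both arrays, with either dye. After normalization the log2 ratios were -1.51 and -1.16, and replicate 1, where both channels were above background, stood 2.84-fold lower in ablated larvae. The 95% interval of the limma fit ran from -2.07 to -0.60. The ratio of replicate 2, and with it the mean, the interval and the rank below, rests on an ablated channel not above background. The unadjusted p was 0.0117 and the adjusted p 0.996, in a fit across all genes by limma. ND-B14 was the only member at least 2-fold lower on both arrays, as were 23 genes in all (0.385%). It ranked 25 from the lowest among the means of the 5971 genes tested. Over the processing alternatives with the labelled sign that left it among the tested genes, its mean ran from -1.70 to -1.14. Without background correction, and in the authors' deposited log2 ratios, it was not at least 2-fold lower on both arrays. With the sign of replicate 2 turned it averaged -0.17.

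The other subunits with the same sign on both arrays had smaller ratios. ND-B18, an accessory subunit, read -0.56 and -0.41, with the controls not above background on either array, so no fold is given. ND-13A, an accessory subunit of the peripheral arm, read -0.14 and -0.20 with the same limit. ND-B16.6 read -0.0954 and -0.10 on replicates 1 and 2. In the other direction, ND-39, an accessory subunit of the peripheral arm, read 0.33 and 0.55 (0.44 ± 0.155), and ND-B14.7, a membrane arm subunit, read 0.45 and 0.26 (0.36 ± 0.134). The limma intervals of ND-39 and ND-B14.7 included 0, from -0.23 to 1.12 and from -0.31 to 1.02. Neither channel of ND-39 or of ND-B16.6 was above background on replicate 2. The control channel of ND-B14.7 was not above background on replicate 1. The ratios there, and the means and SDs, rest on signals near background.

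Of the catalytic core 3 subunits were tested, and ND-75 and ND-23 had large ratios of opposite sign. ND-75, the largest iron-sulphur subunit, was above background in all 4 channels. It read 2069 units from ablated and 4584 from control RNA on replicate 1, and 3171 and 1363 on replicate 2. The Cy3 channel was the brighter on both arrays, which is control RNA on replicate 1 and ablated RNA on replicate 2. Its log2 ratios were -1.74 and 0.99, with a mean of -0.37 ± 1.93. ND-23, another iron-sulphur subunit, read 874 and 72 units on replicate 1 and 96 and 238 on replicate 2, with log2 ratios of 1.69 and -0.64. Only its ablated channel on replicate 1 was above background, and no fold is given. ND-20, which carries the last iron-sulphur cluster before ubiquinone, read -0.0435 and 0.13 with the controls likewise not above background. So the 3 tested subunits of the electron path had no direction common to both arrays.

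Of the remaining accessory subunits, ND-B14.5B showed the widest gap, at -0.93 and 1.14. It was above background in ablated RNA on replicate 2 only and in control RNA on replicate 1 only, which is the Cy3 channel both times. ND-B17.2 read -0.83 and 0.32 with all 4 channels above background. ND-MLRQ, whose mammalian counterpart is now placed in complex IV, read 0.24 and -0.51, also in all 4 channels. ND-42 at -0.16 and 0.45 and ND-AGGG at -0.051 and 0.16 were the other well detected subunits. Neither exceeded the spread between arrays.

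For 3 complex I genes a further probe was on the array. ND-ACP, the mitochondrial acyl carrier protein, had probes whose means disagreed: the brighter averaged -0.31 (0.14 and -0.75) and the other 0.12 (0.16 and 0.0719). Neither channel of the brighter probe was above background on replicate 2, where the signs differed. The other probe was above background only in ablated RNA on replicate 2. The further probes of ND-B17 and ND-MNLL were not above background in any channel. ND-B17 itself read -0.0237 and 0.65, ND-MNLL 0.17 and -0.0176, ND-PDSW 0.53 and -0.12 and ND-15 -0.29 and 0.00574. Neither channel was above background for ND-B17 on replicate 1 or for ND-MNLL and ND-15 on replicate 2. The control channel of ND-PDSW was not above background on replicate 1.

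**Figure D3:**
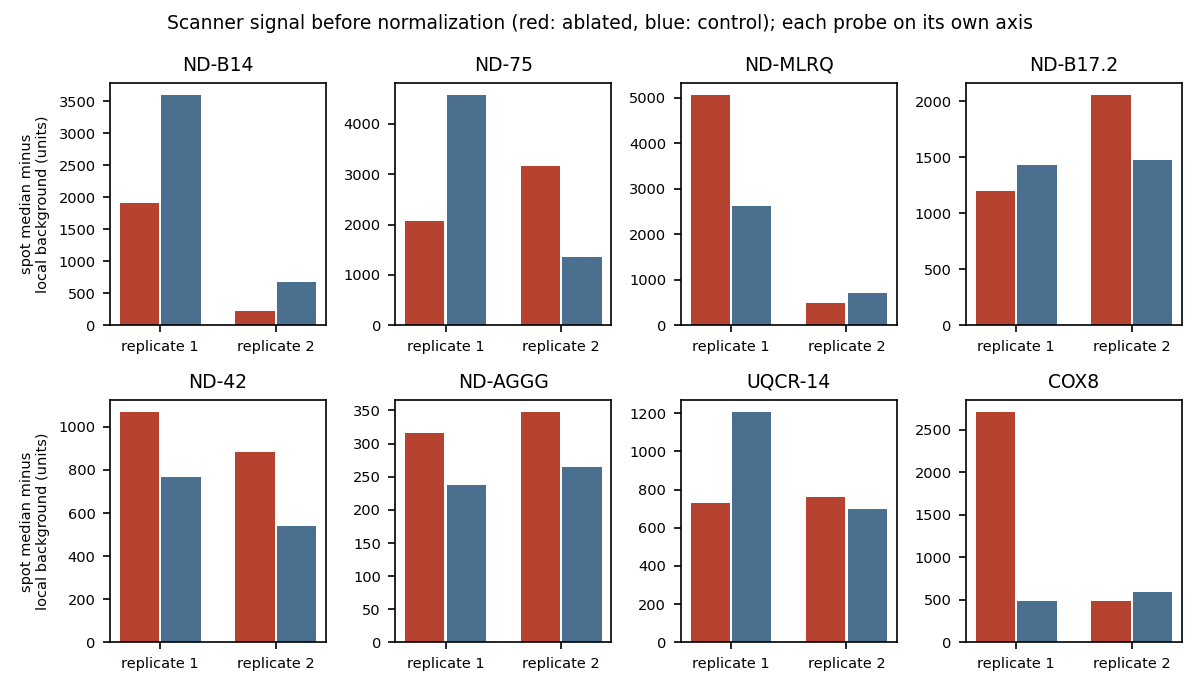
Spot median minus local background in scanner units (y axis, from 0, each probe on its own axis) by array (x axis), red for ablated and blue for control RNA, for ND-B14 and the 7 members above background in all 4 channels. The control bar is the taller on both arrays for ND-B14 alone; ND-75, ND-B17.2 and UQCR-14 have the taller control bar on replicate 1 only, and ND-MLRQ and COX8 on replicate 2 only.

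Complex III hands electrons from ubiquinol to cytochrome c, and 3 of its usual subunits were tested. UQCR-6.4, a small subunit, read 2811 units from ablated and 1199 from control RNA on replicate 1 and 470 and 198 on replicate 2. Ablated RNA was the brighter on both arrays, although neither channel was above background on replicate 2. Its log2 ratios were 0.47 and 0.67 (0.57 ± 0.142), and its mean over alternatives with the labelled sign ran from 0.29 to 1.24. UQCR-C2, a core protein, read 0.00863 and 0.74, with the controls not above background on either array. UQCR-14, a subunit on the matrix side, was above background in all 4 channels and read -1.16 on replicate 1 but -0.00489 on replicate 2 (-0.58 ± 0.819). Its sign agreed on both arrays while its value on replicate 2 was near 0.

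Complex IV, the cytochrome c oxidase, reduces oxygen. Of its 6 tested usual subunits 3 were higher on both arrays, 0 lower on both and 3 of opposite signs, with a median of 0.22 on replicate 1 and 0.0531 on replicate 2. These were COX6B at 0.48 and 0.10 (0.29 ± 0.265), COX5B at 0.0936 and 0.20 (0.15 ± 0.0747) and COX7A. For COX7A the controls were not above background on either array, and its log2 ratios were 0.35 and 0.00209. COX8 was the one subunit above background in all 4 channels. It read 2709 units from ablated and 484 from control RNA on replicate 1 but 489 and 591 on replicate 2. Its log2 ratios were 1.51 and -0.29 (0.61 ± 1.28), so the large ratio came from 1 array. COX7B at -0.0305 and 0.14 and COX4 at -0.19 and 0.00178 stayed near 0. Neither channel of COX7B was above background on replicate 1, nor of COX4 on replicate 2. The ratios there rest on signals near background and do not show an absence of change.

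Complex V had 6 tested usual subunits, of which 4 were higher on both arrays, 1 was lower on both and 1 had opposite signs. Its median was 0.0617 on replicate 1 and 0.19 on replicate 2. The catalytic subunit ATPsynbeta read 0.071 and 0.24 and ATPsyndelta, of the central stalk, 0.0523 and 0.0878, in both cases with the controls not above background on either array. ATPsynG, a membrane subunit, was above background in both channels of replicate 2 and in neither of replicate 1. Its log2 ratios were 0.49 and 0.48 (0.49 ± 0.00683), and the limma interval ran from -0.15 to 1.12. ATPsynD, of the peripheral stalk, read 0.22 and 0.13, with the controls not above background. ATPsynC, which forms the proton-carrying ring, read -0.52 and -0.23 (-0.38 ± 0.205) and was the 1 lower subunit. It was above background in control RNA on both arrays and in ablated RNA on replicate 1.

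ATPsynB, of the peripheral stalk, had 2 probes that disagreed. The brighter read 297 units from ablated and 996 from control RNA on replicate 1 and 396 and 64 on replicate 2, where neither channel was above background. Its log2 ratios were -1.73 and 1.10. The other probe, above background in 1 channel, read 0.25 and 0.17. The large ratios of the brighter probe were therefore not shared by the second probe of the gene.

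Of the 9 tested paralogs, 2 were higher on both arrays, 0 lower on both and 7 of opposite signs. The shares over all genes tested were 24.5%, 22.4% and 53.2%. All 9 were above background in ablated RNA on replicate 1 (87.4% of all genes tested). On replicate 2 these were 3 in ablated and 1 in control RNA (40.6% and 34.9% of all genes tested). No paralog reached background in all 4 channels (20% of all genes tested did). The 2 with a common sign are both complex IV paralogs. COX7AL read 947 units from ablated and 269 from control RNA on replicate 1 and 307 and 101 on replicate 2. Ablated RNA was thus the brighter with either dye. The control channel was not above background on replicate 2, so the ratio there and the mean rest on a signal near background. Its log2 ratios were 0.85 and 0.68 (0.77 ± 0.118), with a limma interval from 0.10 to 1.43, an unadjusted p of 0.0356 and an adjusted p of 0.996. Its partner COX7A read 0.35 and 0.00209. COX6AL read 210 and 74 units on replicate 1 and 212 and 65 on replicate 2, with log2 ratios of 0.49 and 0.57. It was tested through the ablated channel of replicate 1 alone, where it is high, and no fold is given. In the authors' deposited table of log2 ratios, where the median of all genes was 0.31, COX7AL averaged 1.71 and COX6AL 1.62.

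The paralog with the largest ratios was ATPsynCF6L, a copy of a peripheral stalk subunit. It read 7713 units from ablated and 936 from control RNA on replicate 1, and 12 and 364 on replicate 2. The Cy5 channel was the brighter on both arrays, so its log2 ratios were 2.16 and -1.47. Its ablated channel was not above background on replicate 2, so the ratio there rests on a signal near background. The reverse order was seen for UQCR-14L at -1.13 and 1.04, for ND-20L at -1.25 and 0.89 and for ND-24L at -0.46 and 0.84, each with a Cy3 channel that normalized higher on both arrays. The controls of ND-20L were not above background on either array, and no fold is given. Those of UQCR-14L and ND-24L were not above background on replicate 2. ND-B14.5AL read 0.83 and -0.76, UQCR-11L 0.47 and -0.0737 and ATPsynbetaL 0.13 and -0.46, each with neither channel above background on replicate 2. In 4 cases, ND-24L, ND-B14.5AL, ATPsynCF6L and COX6AL, the paralog was tested while its usual partner had no channel above background. The partner of COX6AL is levy, which lies outside the naming rule. Copies of a gene can share sequence with their partners, so a signal cannot be assigned to a copy with certainty.

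Markers of the testis and of larval muscle, a tissue rich in mitochondria, were measured in the same fit. Of 17 testis genes on the array 12 had no channel above background, the testis tubulin betaTub85D, dj, ocn and Mst87F among them. The same held for 7166 of all 13137 genes on the array. Of the 5 tested testis genes 1 was higher on both arrays, 0 lower on both and 4 of opposite signs. Over all genes tested the shares were 24.5%, 22.4% and 53.2%. Their median was 0.21 on replicate 1 and -0.11 on replicate 2. Their summed signal was 28698 units in ablated and 13264 in control RNA on replicate 1, and 6899 and 5319 on replicate 2. Summed signals are scanner units before normalization. They were larger in ablated RNA on both arrays for the testis, muscle and pouch lists alike. Of 15 muscle genes 13 were tested, 3 higher on both arrays and 4 lower on both (24.5% and 22.4% of all genes tested). Their medians were -0.0843 and 0.11, and their summed signals 53060 and 42329 units on replicate 1 and 10637 and 7317 on replicate 2. All 5 wing pouch genes were tested, 2 of them higher on both arrays and 0 lower on both, beside the same shares of all genes. The pouch genes had medians of 0.34 and 0.10. Their summed signals were 4533 and 2536 units on replicate 1 and 4556 and 4053 on replicate 2. The median of the pouch genes' means over both arrays was -0.23, opposite in sign to both array medians. With the sign of replicate 2 turned, 1 of the 13 tested muscle genes passed the test (8.63% of all genes), Mhc at -1.32 and 1.23, and 0 genes of the testis and pouch lists did. The part of these tissues in the members' ratios was not tested. In whole larvae, fewer cells of a type and less RNA per cell cannot be told apart.

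Of the related mitochondrial genes outside the naming rule none passed the test (0% of all genes did). Over all genes tested, 24.5% were higher on both arrays and 22.4% lower on both, which is the background for the counts that follow. Among 16 other chain genes 9 were tested, 2 higher on both arrays and 3 lower on both, with medians of -0.13 and -0.0348. The ATP synthase alpha subunit blw read -0.75 and 0.39, the soluble electron carrier Cyt-c-p -1.24 and -0.35, and SdhB, an iron-sulphur subunit of succinate dehydrogenase, -0.22 and -0.14. Of 14 genes of the tricarboxylic acid cycle on the array 11 were tested, 3 higher on both arrays and 1 lower on both. Among them Fum1, fumarase, read 2.50 and -2.91 and kdn, citrate synthase, 2.58 and -2.32. Idh went the other way, at -1.86 and 2.44, with neither channel above background on replicate 2. For kdn only ablated RNA on replicate 1 and control RNA on replicate 2 were above background. Of 9 genes of mitochondrial transport and control 8 were tested, 6 higher on both arrays and 0 lower on both, with medians of 0.17 and 0.23. They included the adenine nucleotide carriers sesB at 0.12 and 0.49 and Ant2 at 0.42 and 0.28. The 1 tested assembly factor of 6 on the array, Surf1, read 0.26 and -0.00756. With the sign of replicate 2 turned, 3 of the 11 tested genes of the tricarboxylic acid cycle passed the test (8.63% of all genes did in that reading) and 0 of the other chain, transport and assembly genes did. Of these 3, Fum1 and kdn were higher and Idh lower.

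With the sign of replicate 2 turned, 7 of the 43 members passed limma at an adjusted p of 0.05 (16.3%, beside 8.63% of all genes tested in that reading). Of these 2 were higher (4.65%, beside 4.37%) and 5 lower (11.6%, beside 4.25%). The higher ones were ATPsynCF6L at 1.81 (adjusted p = 3.26e-06) and ND-23 at 1.16 (adjusted p = 0.00877). The lower ones were ATPsynB at -1.41 (adjusted p = 0.000634), ND-75 at -1.36 (adjusted p = 0.00114), UQCR-14L at -1.08 (adjusted p = 0.019), ND-20L at -1.07 (adjusted p = 0.0205) and ND-B14.5B at -1.04 (adjusted p = 0.0276). Of these, ND-23 and ND-20L were tested through 1 channel alone, ablated RNA on replicate 1. ATPsynB had neither channel above background on replicate 2, and its second probe did not share its ratios. The ablated channel of ATPsynCF6L and the control channel of UQCR-14L were not above background on replicate 2. ND-B14.5B was not above background in ablated RNA on replicate 1 or in control RNA on replicate 2. Only ND-75 among these members was above background in all 4 channels. In that reading COX7AL averaged 0.0838 and ND-B14 -0.17. The 2 readings thus named different members: those with large ratios in one were those whose arrays cancelled in the other. A ratio that follows the dye and one that follows the genotype under exchanged labels give the same values here and cannot be told apart.

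**Figure D4:**
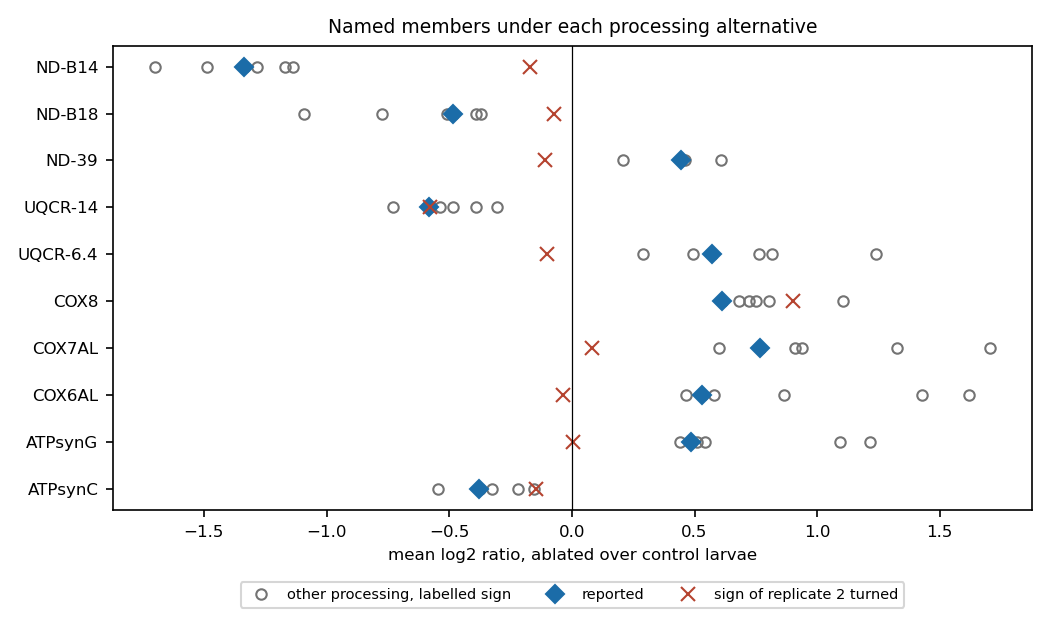
Mean log2 ratio of ablated to control larvae (x axis) for 10 named members (y axis); diamonds are the reported values, open circles other ways of processing with the labelled sign and crosses the sign of replicate 2 turned. The circles of ND-B14 stay between -1.70 and -1.14, while its cross lies at -0.17.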

How the data were processed

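RNA of whole larvae was hybridised to 2 two-colour oligonucleotide arrays. Per the file headers, GenePix Pro 7.1.25 read the scans. The deposited intensity columns hold medians and SDs of spots and of their local background, for Cy5 and for Cy3. The deposited percent columns give the saturated pixels of each spot. The authors also deposited log2 ratios. Against the scanners' Cy5 over Cy3 ratio, the first correlates at r = 1 and the second at r = -0.998, so each has ablated RNA on top. The columns are not centred (medians 0.487 and -0.115), and no source used here gives their further processing. The treatment text in the labels states the temperatures of GAL80 the other way round from the design text, which was followed.

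Intensities were corrected by normexp (offset 50) and loess in limma 3.58.1 (R 4.3.3). Ratios were turned to ablated over control, and the brightest probe above background in any channel stood for a gene. The 2 log2 ratios were fitted against 0 with lmFit and eBayes, two-sided, adjusted over 5971 genes. Errors are SD over 2 arrays, whose number limits the precision. No fold is given for a gene whose controls were not above background on either array. The fit was tested on simulated data.

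Probes were named through the RefSeq gene table, 12687 by locus tag, 1218 by synonym and 688 by the name in the file. The probe whose number belongs to both ND-MWFE and another gene was left out of the set. No sequence is shown. The naming rule took ND-B14, in each complex the 3 brightest, the 2 highest and the 2 lowest members and the 3 of smallest p with the sign turned, the tested paralogs and members whose probes disagree. Other members are named to account for every one. Members and lists were chosen with earlier results of these data known.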

Additional observations from a re-analysis of the deposited data

How the results depend on the processing

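No member passed the test under any alternative with the labelled sign. Counts and medians below are of members unless all genes are named, and ratios are mean log2 ratios. No paired analysis was possible because each array already pairs 1 ablated with 1 control RNA and forms 1 ratio. Aquantile normalization acts on intensities and leaves each log2 ratio as it was, so its identical values are no check. The mean over probes moved none of the medians or counts. Plain background subtraction gave medians of 0.21 (all members), 0.34 (complex IV), 0.34 (complex V) and 0.30 (paralogs) and 2 members at least 2-fold higher, and reversed ND-20L to 0.77, UQCR-14L to 0.0264, ATPsynCF6L to -1.39 and ATPsynB to 0.0537. Without background correction the medians were 0.0207 (all genes) and 0.0889 (complex I), 0 members were at least 2-fold lower, and UQCR-C2 read -0.0453 and COX4 0.0613. Print-tip loess gave -0.0147 for complex I, and UQCR-14L read 0.13, COX4 0.0611 and COX7B -0.0247. Median centring gave 0.20 (all members), 0.14 (all genes), 0.10 (complex I) and 0.33 (paralogs), with 3 members lower, and ND-MLRQ read 0.0672, UQCR-14L 0.17, COX4 0.0508 and ATPsynbetaL 0.0329. Without a filter on dim probes 75 members were tested, 14 lower and 44 of opposite signs, with medians of -0.00195 (all genes), -0.00838 (complex I) and -0.0307 (paralogs). With all 4 channels required 7 were tested, 0 higher, 1 lower and 6 opposite, with 0 at least 2-fold lower since ND-B14 was left out. The medians were -0.14 (all members), 0.0235 (all genes), -0.14 (complex I), -0.58 (complex III) and 0.61 (complex IV), and no complex V subunit or paralog remained. The authors' deposited log2 ratios gave 0.59 (all members), 0.31 (all genes), 0.43 (complex I), 0.63 (complex IV), 0.58 (complex V) and 0.68 (paralogs), with 3 members lower, 3 at least 2-fold higher and 0 at least 2-fold lower. There ND-75 read 0.035, ND-MLRQ 0.20, ND-20L 1.22, UQCR-14L 0.45, COX4 0.62, COX7B -0.13, ATPsynbetaL 0.19, ATPsynCF6L -0.94 and ATPsynB 0.45. With the sign of replicate 2 turned 515 genes and 7 members passed, 14 members were lower on both arrays, 1 was at least 2-fold higher and 2 at least 2-fold lower. The medians were -0.0746 (all members), -0.0879 (complex I), -0.37 (complex III), -0.0508 (complex V) and 0.0838 (paralogs). In that reading ND-24L read -0.65, ND-MLRQ 0.38, ND-39 -0.11, UQCR-6.4 -0.10, UQCR-C2 -0.37, COX7B -0.0859, ATPsynbetaL 0.30, COX6AL -0.037 and ND-ACP 0.44. A 1.5-fold threshold gave 1 member higher on both arrays. Replicate 1 alone and replicate 2 alone gave medians of 0.0523 and 0.13 (all members), -0.051 and 0.00574 (complex I) and 0.47 and 0.57 (paralogs). With both arrays the medians of the mean ratios were 0.0751, 0.0444 and 0.19. Of the 9 tested paralogs 7 had opposite signs on the arrays, so their single-array medians do not show a common rise. Beyond what the construction of an alternative shows, the cause was not tested.

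With 2 arrays, 1 per dye orientation, a dye effect and a gene's own spread share the same degree of freedom. Few members were well above background on replicate 2, so most ratios there rest on signals near background.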
